A study of Mus musculus with 4 samples.

Results

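Genes for the nuclear pore complex and for the carriers that move cargo through it were examined for trimethylation of lysine 36 on histone H3 (H3K36me3) in forebrain neural progenitors from mouse embryos on day 13. The members were chosen by a rule on gene names: numbered Nup and Nupl genes, the importins (Kpna, Kpnb1, Ipo and Tnpo), the exportins (Xpo), and Tpr, Ran, Ranbp1 and Ranbp2. The rule was set with earlier results of these data known. In the authors' annotation of their peaks 44 such genes occurred, of 12987 gene names in all. Chromatin of C57BL/6 wild-type embryos (WT) was compared with that of C57BL/6 embryos labelled H2A.z1cKO (cKO), which lack the histone variant H2A.z1 in the brain. The promoter that drove the deletion and the number of embryos pooled are not given in the sources used here. Each genotype had 1 library from chromatin precipitated with an H3K36me3 antibody (ChIP) and 1 input library. Every difference below is therefore between 2 libraries, without a replicate, and no test between genotypes was possible.

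The nuclear pore is a ring of stacked protein rings set into the nuclear envelope. A Y-shaped complex forms its outer rings, an inner ring holds the channel, proteins rich in phenylalanine and glycine fill that channel, and filaments and a basket extend from its cytoplasmic and nuclear faces. Importins and exportins carry cargo through it, and the small GTPase Ran sets the direction of transport by being bound to GTP in the nucleus and GDP in the cytoplasm. Most of these genes are active in dividing cells of most tissues. H3K36me3 is written by SETD2, which travels with elongating RNA polymerase II, so the mark lies over the bodies of transcribed genes and is low at their starts.

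The ChIP libraries held 31984670 tags in WT and 32927164 in cKO, and the authors called 36820 and 95750 peaks in them. For each gene the share of its body (RefSeq, GRCm38.p6, the sequence of mm10) lying inside peaks is called its coverage. Of the fixed markers of neural progenitors 8 of 10 carried a body peak in WT and 9 in cKO, Fabp7 having none in either. Markers of endothelium had none in 4 genes, those of microglia a cKO peak in 1 of 4 (Csf1r) and those of red blood cells a cKO peak in 1 of 5 (Alas2). Among 5 neuronal markers Tubb3 and Map2 were marked in both libraries, and Dcx, Neurod6 and Tbr1 in neither.

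The nuclear pore and transport genes were marked in both genotypes, and all 44 had higher coverage in cKO with the full lists. Among genes of at least 5 kb with a WT peak, 2.12% had lower coverage in cKO, and 0 of the 38 such members did. The median member had 7.89% of its body inside peaks in WT (quartiles 1.12 and 15.7%) and 47.8% in cKO (quartiles 25.01 and 63.2%). Differences, cKO minus WT, had a median of 37.3 percentage points and quartiles of 21.6 and 45.1. A shortened cKO list, made of its top peaks by -log10 q up to the total length covered in WT, gave a median of -0.755 points. A peak over the body was found in 39 members in WT and in all 44 in cKO. Across all 21887 protein-coding genes 31.3% had such a peak in WT and 43.7% in cKO. A gene needs a peak in at least 1 library to enter the annotation, so the share of marked members is in part set by how they were chosen. The full lists covered 13.3 Mb in WT and 69.1 Mb in cKO. With 1 ChIP library per genotype, a difference in ChIP enrichment, more cells carrying the mark and more mark per cell cannot be told apart.

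Calls were limited to genes of 5 kb or more and required a coverage difference of 10 percentage points or more. Of the 43 members of that length 40 were higher in cKO and 0 were lower, against 32.6% and 0% of 16853 genes. Among genes with a cKO peak in the body, as all members had, 62.6% were called higher. Of the 38 members of that length with a WT peak 35 were higher, against 75.3% of 6400 WT-marked genes. The median coverage of these 38 members was 8.43% in WT and 52.04% in cKO, and their median difference was 38.5 points. The 6400 genes had medians of 3.96% and 29.0% and a median difference of 22.9 points. Over 50% of the body was covered in cKO in 20 of the 38 members and in 24.2% of the 6400 genes. With 1 library per genotype these shares describe the libraries and were not tested.

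**Figure D1:**
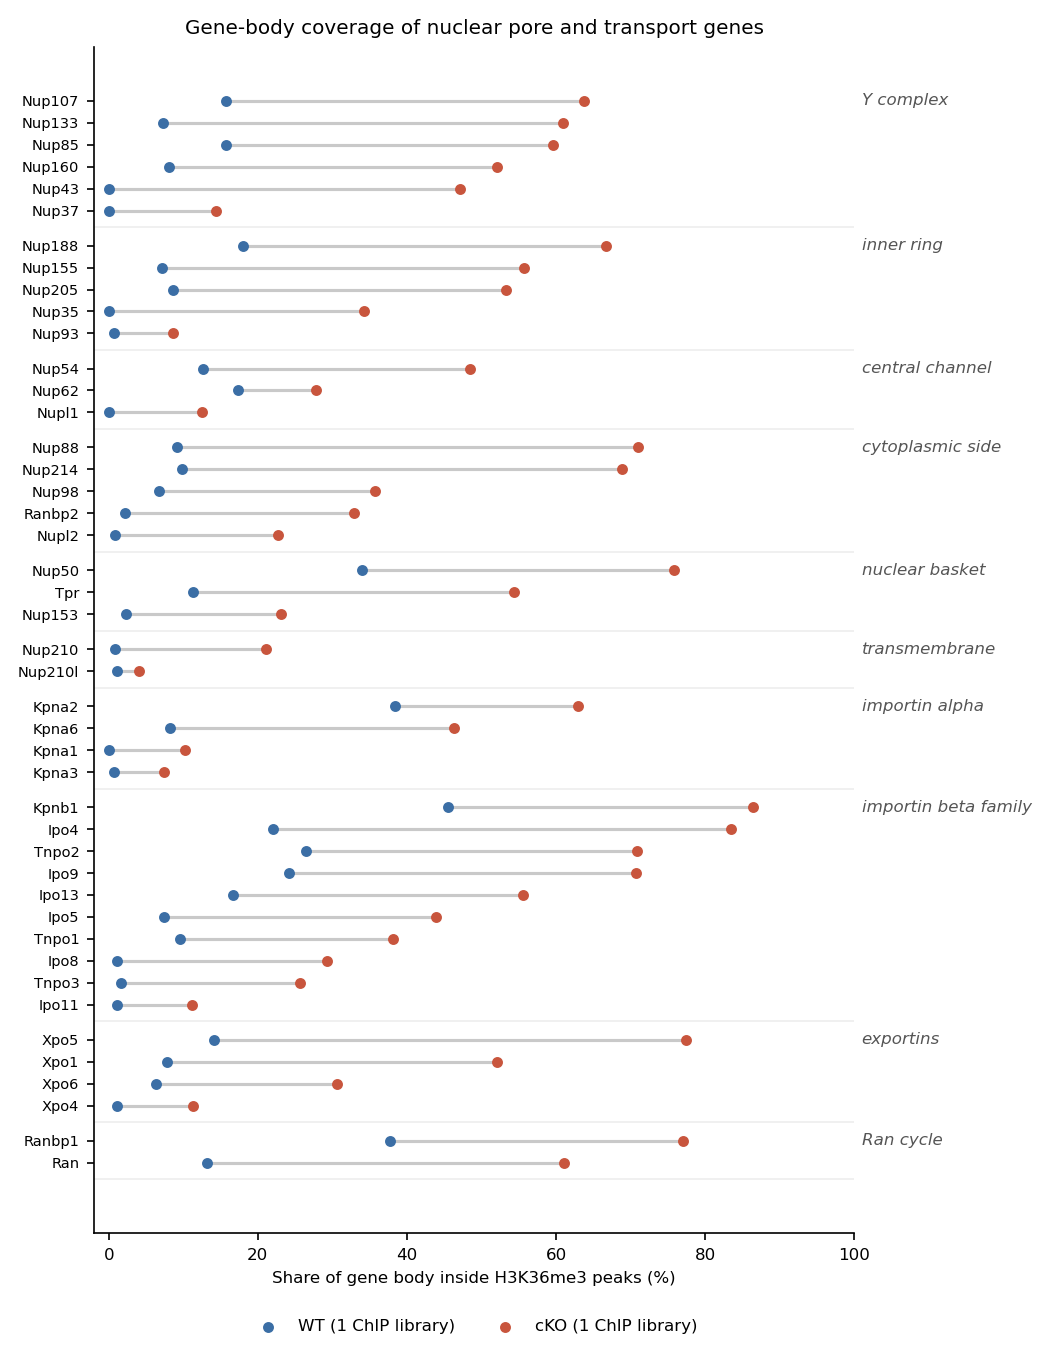
Share of the gene body inside H3K36me3 peaks for the 44 nuclear pore and transport genes, grouped by role, in the WT library (blue) and the cKO library (red), with 1 ChIP library per genotype. Every red point lies to the right of its blue point, with medians of 7.89% and 47.8%; under the shortened cKO list 24 of the 44 differences were negative.

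**Figure D2:**
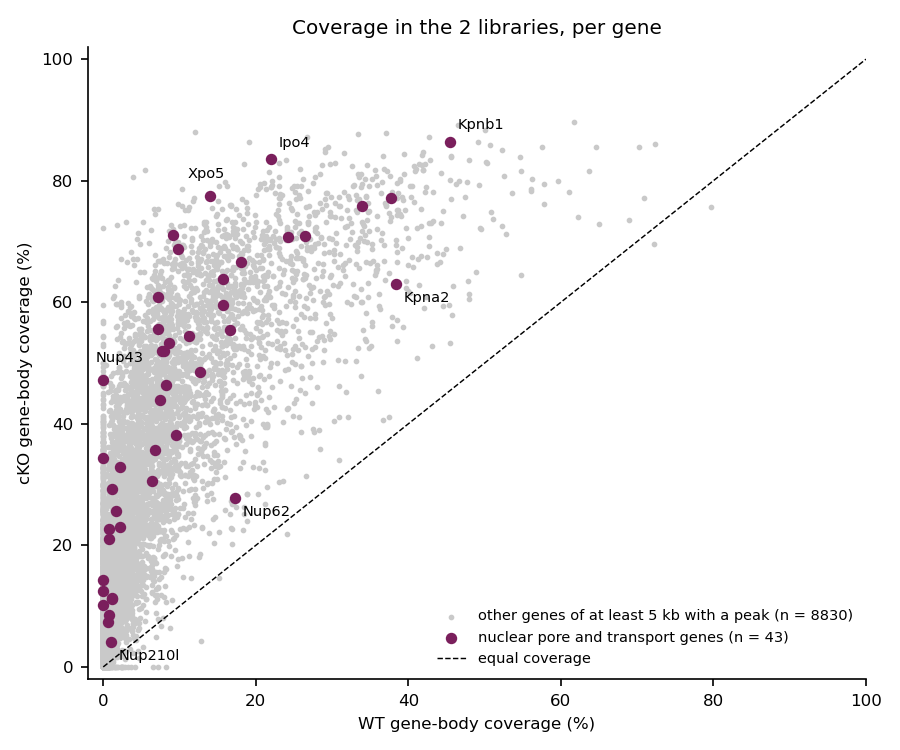
Coverage in WT (horizontal axis, %) against cKO (vertical axis, %) for 43 nuclear pore and transport genes of at least 5 kb (purple) and for other genes of that length with a peak in either library (grey). The dashed line marks equal coverage, and all 43 genes lie above it, Nup62 and Nup210l being among the nearest; under the shortened cKO list 24 of the 44 members had a negative difference.

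No peak lay in the promoter windows that could be examined. RefSeq gives 43 promoter windows for 36 of the members, each from 250 bp before to 50 bp after a transcript start, and 0 of the 43 were touched by a peak in either library. Of all 32851 RefSeq windows 0.338% were touched in WT and 1.26% in cKO, and among 7172 windows of genes with a WT peak in the body 0.349% were touched in WT and 1.35% in cKO, so the count of 0 is near the background. The first peak began a median of 6.93 kb into the gene in WT (38 members) and 4.20 kb in cKO (43 members), and in these members nowhere less than 1.56 kb into the gene. Nup210l, which has no window and no known strand here, is the exception: its WT peaks included 1 at 0.058 to 0.444 kb and 1 at 110.9 to 111.1 kb of its 111.1 kb span, and cKO peaks covered both ends too. A peak thus lay near its start on either strand. The authors gave 3 of its 4 WT and 3 of its 5 cKO body peaks the name Rps27. Whether the peaks at its ends belong to Nup210l or to neighbouring genes was not tested. The windows of the 4 members with the highest WT coverage are printed to show the sequence of these unmarked starts beside well-covered bodies. They are given 5′ to 3′ on the strand of the gene, with the transcript start 50 bp before the end (RefSeq, GRCm38.p6). Capitals mark matches on either strand to the letters CCAAT (the box bound by NF-Y), to GGGCGG (the core of a GC box), to ACTTCCG (an ETS site) or to the NRF1 palindrome.
Kpnb1, chr11:97187843-97188142, minus strand: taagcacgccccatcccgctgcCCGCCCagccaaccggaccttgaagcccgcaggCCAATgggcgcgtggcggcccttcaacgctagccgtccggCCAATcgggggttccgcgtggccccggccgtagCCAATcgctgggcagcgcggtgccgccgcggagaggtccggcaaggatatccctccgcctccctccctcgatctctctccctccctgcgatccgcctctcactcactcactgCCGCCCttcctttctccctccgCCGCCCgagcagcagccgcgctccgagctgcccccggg
Kpna2, chr11:106999476-106999775, minus strand: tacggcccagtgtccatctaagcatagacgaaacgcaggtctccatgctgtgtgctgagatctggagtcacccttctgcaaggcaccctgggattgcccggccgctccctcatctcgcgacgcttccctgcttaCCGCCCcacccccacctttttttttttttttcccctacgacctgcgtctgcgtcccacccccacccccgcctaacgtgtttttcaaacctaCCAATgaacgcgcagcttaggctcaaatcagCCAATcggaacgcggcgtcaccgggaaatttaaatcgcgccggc
Ranbp1, chr16:18248645-18248944, minus strand: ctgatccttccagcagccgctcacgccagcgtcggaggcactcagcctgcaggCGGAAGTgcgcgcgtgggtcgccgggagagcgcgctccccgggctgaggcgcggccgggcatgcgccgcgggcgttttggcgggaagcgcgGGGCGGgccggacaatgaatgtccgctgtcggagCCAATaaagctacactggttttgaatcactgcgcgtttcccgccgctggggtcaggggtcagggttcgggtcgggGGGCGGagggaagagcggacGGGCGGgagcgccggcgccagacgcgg
Nup50, chr15:84923178-84923477, plus strand: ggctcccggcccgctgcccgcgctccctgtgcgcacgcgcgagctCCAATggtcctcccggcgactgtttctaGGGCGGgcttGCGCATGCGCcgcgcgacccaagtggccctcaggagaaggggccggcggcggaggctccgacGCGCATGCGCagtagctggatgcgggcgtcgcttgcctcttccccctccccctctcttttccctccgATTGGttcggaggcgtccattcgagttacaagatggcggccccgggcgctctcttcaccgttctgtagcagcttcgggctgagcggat

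These windows are rich in C and G and resemble most of the other members' windows in that respect. The ratio of observed to expected CpG had a median of 0.933 over the 43 windows, against 0.384 over all 32851 windows of the table, and lay under 0.6 in 3 of the 43 (windows of Ipo5, Nup160 and Nup93) and in 64.2% of all. GGGCGG occurred in 28 of 43 windows (65.1%; 35.7% of all), and CCAAT in 23 (53.5%; 37.4% of all). The TATAA letters were rarer than over all windows, in 4 (9.30%; 24.9% of all). The NRF1 palindrome occurred in 5 windows (11.6%; 0.971% of all), those of Nup107, Nup50, Nup62, Ran and Xpo5. ACTTCCG occurred in 9 (20.9%; 6.42% of all), and the palindrome bound by ZBTB33 in 0 (0.466% of all). Windows of GC-rich promoters share their base composition, letters that match are a description and not a bound site, and windows of 1 gene can overlap.

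The 6 members that belong to the Y complex, the scaffold of the outer rings, were all called higher in cKO. Their median coverage was 7.63% in WT and 55.8% in cKO (1 positive, 3 negative and 2 at 0 under the shortened cKO list). Nup133, a stalk protein of the Y, had the largest difference, with 14 WT peaks over 7.24% of its 52.2 kb and 35 cKO peaks over 60.9%. Nup107, its partner in the stalk, had 15.7% in WT and 63.8% in cKO. Nup160 and Nup85, which form the arms, had 8.02 and 15.7% in WT and 52.1 and 59.5% in cKO. Nup43 and Nup37, beta-propeller proteins of the arms, held no WT peak, and their cKO peaks covered 47.1 and 14.3%. The difference of Nup37, the smallest of the group, was 14.3 points, and under the limit with a fold enrichment of at least 4 (9.46) or as many cKO as WT peaks (6.53). Nup43 (chromosome 10, 7667504 to 7678886) lies wholly inside the span of Pcmt1, and ChIP reads carry no strand, so its peaks cannot be assigned to either gene.

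The inner ring lines the pore and holds the channel proteins. Of its 5 genes 4 were called higher (1 positive, 3 negative and 1 at 0 under the shortened cKO list). Nup188 and Nup205, large paralogous scaffold proteins, had 18.03 and 8.63% in WT and 66.7 and 53.3% in cKO. Nup155, which links the ring to the membrane, went with them at 7.15 and 55.7%. Nup35 had no WT peak and 14 cKO peaks over 34.3% of its body. Nup93, the linker that joins the ring to the channel, had only 0.757% in WT and 8.62% in cKO over its 114 kb, and its difference of 7.86 points was the largest under the limit among members of at least 5 kb. Among the channel genes Nup54 had 12.7 and 48.5%, and Nupl1 (the gene of Nup58) had no WT peak and 12.5% in cKO. Under the shortened cKO list Nup54 stood at -1.10 points, Nupl1 at 1.85 and Nup62 at 7.54. Nupl1 also fell under the limit with a fold enrichment of at least 4 (9.69 points), and both Nupl1 (6.64) and Nup62 (7.54) did with as many cKO as WT peaks. Nup62, whose product is the central FG protein, had a single WT peak of 2724 bp, the 54th longest of the WT list, over 17.3% of the gene. In cKO its 2 peaks covered 27.8%, and the difference of 10.5 points was the smallest of the channel genes. Nup62 (chromosome 7, 44816088 to 44831836) lies wholly inside the spans of Atf5 and Il4i1b, and the annotation gave the long peak to Il4i1.

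On the cytoplasmic side all 5 members were called higher (2 positive and 3 negative under the shortened cKO list). Nup88 and Nup214, partners in the platform where export complexes are taken apart, had 9.09 and 9.80% in WT and 71.02 and 68.8% in cKO. They were among the members that kept a difference of at least 10 points under the shortened cKO list, with 23.9 and 12.4 points. Nup98, whose transcript encodes Nup98 and Nup96, had 6.78 and 35.7%, and Ranbp2, the SUMO ligase of the filaments, had 2.24 and 33.0%. Nupl2 (the gene of Nup42) had a single WT peak of 152 bp over 0.798% and 11 cKO peaks over 22.6%, the lowest difference of the group at 21.8 points.

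In the nuclear basket, Tpr, the filament protein of the basket, had 22 WT peaks over 11.2% of its 57.1 kb and 43 cKO peaks over 54.4%. Nup50, which helps to release importin alpha from its cargo, had 33.9% in WT and 75.9% in cKO. Nup153, the anchor of the basket, had 2.26 and 23.05%. Nup50 alone of the 3 was positive under the shortened cKO list, with 22.9 points, beside -3.29 for Tpr and -2.26 for Nup153. Nup210, a glycoprotein that spans the pore membrane, had 4 WT peaks over 0.818% of its 105 kb and 42 cKO peaks over 21.04%, against -0.818 points under the shortened cKO list. Its paralogue Nup210l had 1.03 and 4.11%, a difference of 3.07 points, which was the smallest of all 44 members. With as many cKO as WT peaks Nup153 (6.38 points) and Nup210 (5.57) fell under the limit.

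The importin alphas, which recognise the classical nuclear localisation signal, ranged from the second most covered member in WT to one without a WT peak. Kpna2, the alpha of proliferating cells, had 38.4% of its 10.9 kb inside WT peaks and 63.0% inside cKO peaks, with 6 peaks in each library. Kpna6 had 8.22 and 46.3%, the largest difference of the group at 38.1 points. Kpna1 had no WT peak and 10.2% in cKO, just past the limit of 10 points, and 9.44% with a fold enrichment of at least 4, 3.93% with as many cKO as WT peaks and 0% under the shortened cKO list. Kpna3 had 0.666 and 7.40%, a difference of 6.73 points, and was not called. Under the shortened cKO list Kpna6 alone was positive (3.42 points), and Kpna2 stood at -8.45.

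All 10 members of the importin beta family were called higher in cKO (5 positive and 5 negative under the shortened cKO list). Their median coverage was 13.1% in WT and 49.7% in cKO. Kpnb1, the partner of the alphas, had the highest coverage of the 44 members in both libraries. Its gene (chromosome 11, 97159710 to 97187892) held 23 WT peaks over 45.5% and 7 cKO peaks over 86.4%, ranks 55 and 10 of 16853 genes. Ipo4, an importin of histones and ribosomal proteins, had 7 WT peaks over 22.04% and 2 cKO peaks over 83.5% of its 10.5 kb, the largest difference of the group at 61.5 points. Ipo9 had 35 WT peaks over 24.2% and 25 cKO peaks over 70.8%. The transportins, which import many RNA-binding proteins, differed in level, with 26.4 and 70.9% for Tnpo2, 9.59 and 38.1% for Tnpo1 and 1.66 and 25.7% for Tnpo3. Ipo13 had 16.6 and 55.5%, Ipo5 7.46 and 43.9%, and Ipo8 1.13 and 29.3%. The lowest difference was that of Ipo11, the longest member at 143 kb, with 1.09 and 11.2%, just past the limit at 10.1 points. With a -log10 q of at least 5 it was 9.77 points and no longer called. The same held for a fold enrichment of at least 4 (8.79 points). With as many cKO as WT peaks Ipo11 (2.51 points) and Ipo8 (7.37) were under the limit.

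The 4 exportins among the members were called higher as well (2 positive and 2 negative under the shortened cKO list). Xpo5, which exports precursors of microRNAs, had 16 WT peaks over 14.05% of its body and 18 cKO peaks over 77.5%. Its difference of 63.4 points was the largest of all 44 members with the full lists. It was 26.9 points under the shortened cKO list, where Kpnb1 had the largest (31.05). Ipo4 had the largest under the fold limit of 4 (64.7), the -log10 q limit of 5 (71.0) and as many cKO as WT peaks (61.5), and Nup35 with joined peaks (82.0). Xpo1, the general carrier of leucine-rich export signals, had 7.76 and 52.04%, and Xpo6, which exports actin, had 6.37 and 30.6%. Xpo4 had 1.13 and 11.3%, a difference of 10.2 points that fell to 9.93 with a fold enrichment of at least 4. With as many cKO as WT peaks Xpo4 (4.02 points) and Xpo6 (7.33) were under the limit. Of the Ran genes, Ran itself is 4.17 kb long and so could not be called. It had 2 WT peaks over 13.2% and 1 cKO peak over 61.1%, and no cKO peak under the shortened cKO list. Ranbp1, which helps to hydrolyse the GTP of Ran, is the shortest member that could be called, at 8.72 kb. It had 7 WT peaks over 37.7% and 2 cKO peaks over 77.1%, and kept 30.9 points under the shortened cKO list.

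In 8 members the number of peaks was lower in cKO although more of the gene lay inside them (full lists; Ipo4 and Ran held no cKO peak under the shortened one). Nup188, Nup50, Ipo4, Ipo9, Kpnb1, Tnpo2, Ran and Ranbp1 had fewer body peaks in cKO, and 1 member, Kpna2, had equal numbers. Of the 38 WT-marked members of at least 5 kb 7 had fewer, against 16.1% of such genes, a share near the background. In 33 members at least 1 cKO peak overlapped 2 or more WT peaks. The longest member peak was a cKO peak of 10512 bp in Nup50 (chromosome 15, 84932175 to 84942686). It overlapped 10 WT peaks and ranked 46th by length in its list. Joining peaks of a library within 3 kb brought some genes close together in the 2 genotypes. Kpnb1 then reached 90.5% in WT, with a difference of 0.656 points. The differences of Nup50, Tnpo2, Kpna2 and Nup54 became 4.65, 5.59, 7.26 and 6.65 points, and that of Ranbp1 9.18, so that these 6 were no longer called. For Nup210 the joined difference was 51.8 points, and for Nup43 80.9.

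**Figure D3:**
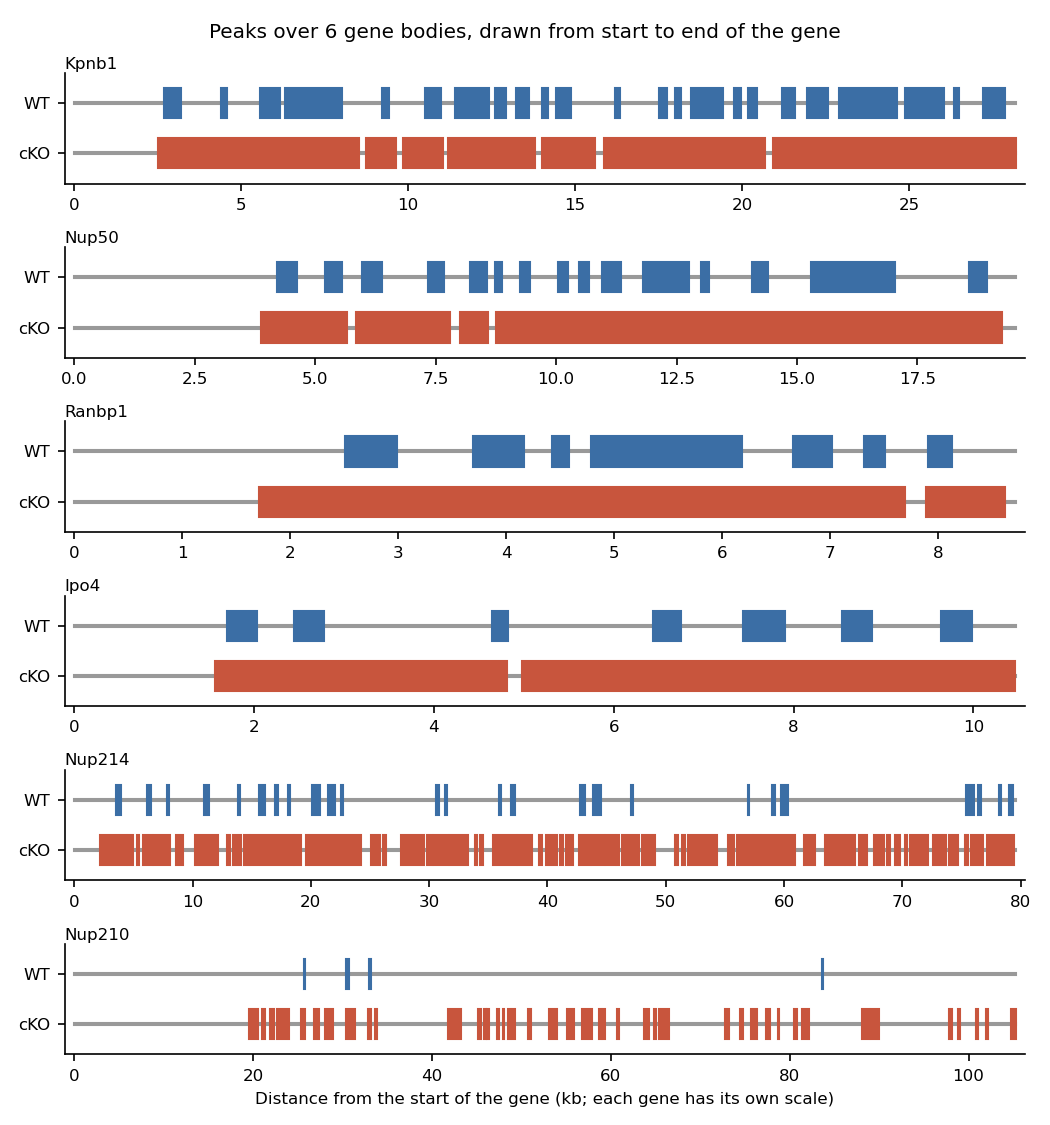
Peaks over 6 gene bodies in WT (blue) and cKO (red), drawn by distance from the start of the gene in kb, each gene on its own scale. In Kpnb1, Nup50, Ranbp1 and Ipo4 fewer and longer cKO peaks overlap the WT peaks. In Nup214 57 cKO peaks stand beside 27 WT peaks, and in Nup210 42 cKO peaks stand beside 4 WT peaks. No peak reaches the start of any of the 6 genes.

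Under the shortened cKO list 8 of the 43 members were still higher by at least 10 points and 2 were lower, against 4.81% and 2.21% of 16853 genes. The 8 were Kpnb1 (31.05 points), Ranbp1 (30.9), Xpo5 (26.9), Nup88 (23.9), Tnpo2 (23.2), Nup50 (22.9), Nup214 (12.4) and Nup188 (12.4). They included the 2 members with the strongest cKO peaks by -log10 q, Xpo5 and Kpnb1, which follows in part from how that list was ranked. The 2 lower members were Ipo4 (-22.04 points) and Ipo13 (-16.6), neither of which held a cKO peak in the shortened list. Their values are thus their WT coverage with a minus sign. Under that list 27 members kept a cKO peak and 13 had a WT peak alone. The direction did not turn under the other alternatives, with all 44 differences positive and 0 members called lower. With a -log10 q of at least 5, 39 members were called higher (32.3% of all genes, and 0.00593% lower), and with a fold enrichment of at least 4, 35 were (30.2% and 0.00593%). With the cKO list held to as many peaks as in WT 30 were higher (22.1% and 0.0297%), and with joined peaks 36 (35.8% and 0.0356%). With the full lists 8775 of the 16853 genes had a cKO peak in the body and 6400 a WT peak. Genes without a peak cannot be called, while every member had one, so shares over all genes are a low background. Shares among marked genes were not computed for these alternatives.

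With the full lists most WT peaks in these genes lay where cKO also had a peak. Of 463 WT peaks over the 44 bodies 459 (99.1%, exact binomial interval 97.8 to 99.8%, counting error only) were overlapped by at least 1 bp, beside 96.03% of all WT peaks. Under the shortened cKO list 34.1% were. The 4 without a cKO partner were short peaks of 156 to 242 bp in Tpr, Tnpo1, Nup210 and Xpo6. Peaks of the members were about as wide as others in WT, with a median of 267 bp against 271 bp, and wider in cKO, with 512 bp against 436 bp. The strongest by -log10 q was in Xpo5 in both lists (chromosome 17, 46234553 to 46235739 in WT and 46233606 to 46237837 in cKO). The authors' fold enrichment over input was 13.1 at the first, which ranked 70th of its list, and 9.17 at the second, which ranked 105th. A peak of Ipo13 (rank 112) and 1 of Kpnb1 (rank 162) followed in WT, and peaks of Kpnb1 (125), Ipo9 (196) and Nup188 (229) in cKO.

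Mean coverage grew from the start to the end of the genes in both libraries. Each body was divided into 5 equal bins from start to end. In the first bin 3.07% was covered on average in WT and 15.8% in cKO, over 43 members with a known strand. In the next it was 9.38 and 45.05%, and in the last 16.6 and 59.6%. In 5209 genes of 5 kb or more with a known strand and a WT peak the same bins held 1.27 and 7.59%, 5.04 and 25.1%, and 13.1 and 48.8%. Not every gene followed the average. Nup107 and Nup214 had 16.8 and 10.9% of their first bin covered in WT, while Ipo5 and Xpo6, among others, had none there in either library. Nup62 had 86.5% of its last bin covered in WT and nothing before it. Across the 44 members longer genes had lower coverage (Spearman rho -0.455 in WT and -0.525 in cKO), as did WT-marked genes in general (-0.585 and -0.572). The order of the members was much the same in both libraries (rho 0.842 over 44 genes, which share their 2 libraries). WT-marked genes of at least 5 kb had a similar value (rho 0.852).

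**Figure D4:**
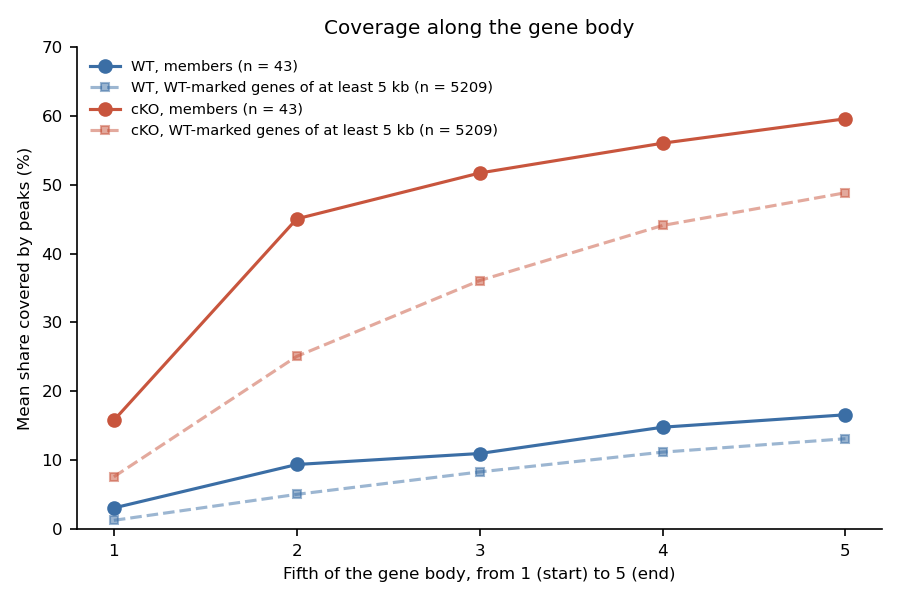
Mean share of each of 5 equal bins of the gene body inside peaks (vertical axis, %), from the start (1) to the end (5) of the gene, for 43 nuclear pore and transport genes (solid) and 5209 genes of 5 kb or more marked in WT (dashed), in WT (blue) and cKO (red). The members rise from 3.07 to 16.6% in WT and from 15.8 to 59.6% in cKO; the points are means over genes of 1 library each.

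Counted by the name the authors gave each peak, the 44 genes held 352 non-intergenic peaks over 115.7 kb in WT and 746 over 605.1 kb in cKO. These are ratios of 2.12 in number and 5.23 in length, beside 2.58 and 5.18 over all gene names. A named WT peak was present for 35 members, of which 33 had at least 2-fold the summed length in cKO, against 86.2% of 8406 names, a share near the background. Fewer named peaks in cKO were counted for 9 of the 35 and for 19.2% of names. Under the shortened cKO list the ratios were 0.173 and 1.26. Introns held 60.8% of the members' WT peaks (interval 55.5 to 65.9%) and 70.6% of their cKO peaks (67.2 to 73.9%), beside 50.9 and 64.0% over all names. These are exact binomial 95% intervals for counting error only, and peaks of the same gene are not independent. Exons held 14.2 and 10.6% (23.3 and 16.1% over all names), and transcription termination sites 11.9 and 11.3% (17.9 and 14.3%). The class promoter-TSS held 46 WT and 56 cKO peaks (13.1 and 7.51%, beside 8.01 and 5.59% over all names). Of these peaks 100 overlapped the body of the named gene. No promoter window was touched, so those of members with a window were assigned to the starts of other annotated transcripts. Examples lie inside Tpr, Ipo9 and Nup160. Nup85, Kpna6, Nup43 and Nup35 have no window, and their first peaks began 2.16 kb or more into the gene. The other two, both of Ipo4 in cKO, lay before its start, in Tm9sf1.

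The name given to a peak and the gene body it lay in often differed. Of the peaks over member bodies 28.7% in WT and 29.9% in cKO carried another gene's name, and in 15 members most did. In Ranbp1 5 of 7 WT peaks and both cKO peaks were named Gm25777, so that by name the gene had 2 WT peaks and 0 cKO peaks while its coverage was 37.7 and 77.1%. In Tnpo2 8 of 11 WT and 5 of 6 cKO peaks were named Gm25506, in Nup205 13 of 20 and 27 of 50 Gm23435, and in Kpna3 3 of 3 and 14 of 16 Ebpl. Conversely, 22 WT and 65 cKO peaks named for a member lay outside its body. Of the peaks named Nupl2, 7 of 8 in WT and 21 of 33 in cKO lay in the neighbouring gene Klhl7, and 10 cKO peaks named Nup88 lay in Rabep1. The coverage values above do not depend on these names.

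**Figure D5:**
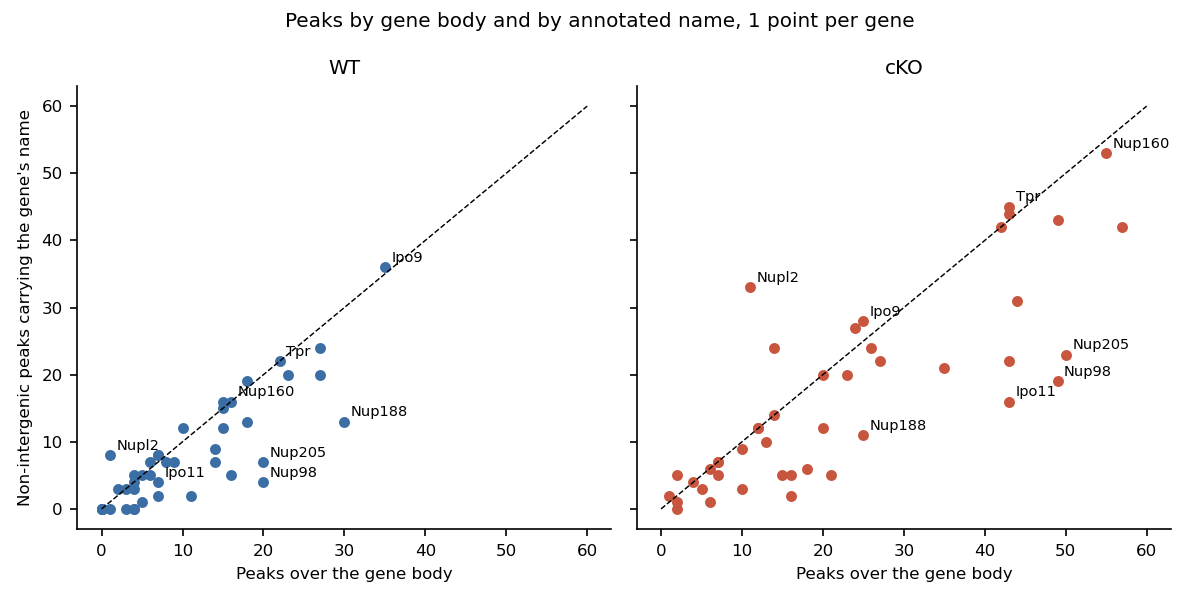
Number of peaks overlapping each member's body (horizontal axis) against the number of non-intergenic peaks that carry its name (vertical axis), in WT (left) and cKO (right), 1 point per gene. Nup188, Nup205, Nup98 and Ipo11 lie below the dashed line of equal counts, and Nupl2 lies above it with 33 named cKO peaks and 11 over its body.

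Genes of these families also exist under names that no peak carried. Of 49 protein-coding RefSeq genes that fit the name rule, Ipo7, Kpna4, Xpo7, Kpna7 and Nup62cl were absent from the annotation. Ipo7 had 7 WT peaks over 3.90% and 23 cKO peaks over 38.3% of its body, most of them named Snora23. Xpo7 had 2.97 and 23.5%, mostly under the name Npm2, and Kpna4 1.82 and 14.4% under Gm22009, and these 3 were called higher. Kpna7, an importin alpha of oocytes, and Nup62cl on the X chromosome had no peak in either library. Over all 49 genes the median coverage was 7.24% in WT and 43.9% in cKO. Of them 43 were called higher, against 32.6% of 16853 genes of at least 5 kb.

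The other genes of the pathway, from a list of 28, had medians close to those of the members. A WT peak was found over 24 of them and a cKO peak over 27, and the medians were 8.15 and 50.1%. Of the 25 that could be called 23 were higher and 0 lower, beside 32.6% and 0% of 16853 genes of at least 5 kb. Among WT-marked genes of that length 75.3% were called higher. Under the shortened cKO list 7 were higher and 0 lower (4.81% and 2.21% of the 16853 genes). There 15 differences of the list were positive and 9 negative. Ahctf1, which starts pore assembly on chromatin, had 8.96 and 56.2%, and Sec13, shared by the Y complex and secretory coats, 10.2 and 57.7%. Rangap1 and Rcc1, the activating protein and the exchange factor of Ran, had 24.8 and 75.1%, and no WT peak and 50.1%. Cse1l, which returns importin alpha to the cytoplasm, had 6.74 and 48.6%. Nxf1, the carrier of mRNA, had 20.8 and 57.6%, and Mcm3ap, a scaffold for mRNA export, 9.45 and 66.3%. Rae1, an mRNA export factor bound to Nup98, had the highest cKO coverage of the list, with 29.9 and 77.3%. Snupn, the adaptor for small nuclear ribonucleoproteins, had no WT peak and 4.05% in cKO. Thoc2, on the X chromosome, had no WT peak and 0.537%, and Rangrf no peak in either library.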

How the data were processed

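H3K36me3 ChIP and input libraries of WT and cKO forebrain progenitors were deposited as peak lists. Per the submitters' processing notes, Bowtie2 2.2.9 and the build mm10 were used. The authors called narrow peaks per ChIP library against an input with MACS 2.1.1.20160309 at a p cutoff of 1.00e-05, per the file headers; the notes give 2.1.0. The modelled fragment length, 152 bp in WT and 185 bp in cKO, is also the shortest peak. The deposited lists give each peak's pileup signal, its fold enrichment (a ratio to local input) and -log10 p-values and q-values, which served only to rank or filter peaks within a list. The headers say that q was not calculated, yet the column holds positive values; they are called q as the column is. By its name in the header, the cKO control may combine inputs of more than 1 library. Which tool annotated the authors' peaks is not given here; starts in that table are 1 bp higher than those of the lists.

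With Python 3.11.15, pandas 2.3.3 and scipy 1.17.1, coverage was computed as the share of a RefSeq gene span inside merged peaks (checked on simulated data). It grows with tags and enrichment and cannot exceed the whole body. Strand came from the RefSeq promoter table or, for 8 genes, from the order of intron numbers (35 of 35 checked genes matched); Nup210l had none. Members, lists and rules were chosen with earlier results of these data known. Each role's largest and smallest differences, extremes, limits and strongest peaks were named, as were members the comparisons needed. Alternatives were stricter peaks, a shortened cKO list, joined peaks, assignment by gene body and other thresholds.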

Additional observations from a re-analysis of the deposited data

How the results depend on the processing

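No paired analysis was possible because each genotype had 1 ChIP library and no replicate numbers. All 44 differences stayed positive with a fold limit of 4, a -log10 q limit of 5, peaks joined within 3 kb, or a cKO list of as many peaks as in WT. With that last list the ratio of named peaks was 1.02 and 90.9% of WT peaks were overlapped; with the fold limit 97.6% were. Joined peaks gave median coverages of 29.2% in WT and 75.7% in cKO. The shortened cKO list has the length covered in WT, so the number of positive and negative differences is set in part by its making. Under it the ratios were 0.173 in peaks and 1.26 in length, 34.1% of WT peaks were overlapped, the median cKO coverage was 5.40%, the median difference -0.755 points, and 8 genes were called higher and 2 lower. There 24 differences were negative, including those of Nup93, Nup210l and Kpna3, which were under 10 points with the full lists. The other 21, with Ran too short for a call, were Nup107 -3.93, Nup133 -2.04, Nup85 -2.75, Nup155 -2.85, Nup205 -1.26, Nup54 -1.10, Nup98 -6.29, Nupl2 -0.798, Ranbp2 -2.24, Nup153 -2.26, Tpr -3.29, Nup210 -0.818, Kpna2 -8.45, Ipo11 -1.09, Ipo13 -16.6, Ipo4 -22.04, Tnpo1 -0.754, Tnpo3 -1.66, Xpo4 -1.13, Xpo6 -0.773 and Ran -13.2 points. For the 13 members with a WT peak and no cKO peak left, such as Ran, Ipo4 and Ipo13, the value is the WT coverage with a minus sign. Counts of calls at 20 points (34), and over all 49 family genes, an alternative chosen after seeing the data (43), stayed within 1.5 times the reported 40. At 10 points 32.6% of 16853 genes and 75.3% of WT-marked genes were called higher. The share of genes called at 20 points was not computed, so that count has no background beside it. Depth was similar in the 2 ChIP libraries, and a gene without a peak is one in which none was detectable at this depth.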
